A study of Mus musculus with 14 samples.

Results

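The genes described here are 41 synaptic vesicle and exocytosis genes, chosen by name from the 46983 genes of each deposited table, and all 41 were found and tested in both tables. Synaptic vesicles are small membrane sacs that store neurotransmitter. SNARE proteins on the vesicle (synaptobrevins, Vamp genes) and on the plasma membrane (syntaxin and Snap25) zip together to fuse them, synaptotagmins sense the calcium that triggers fusion, and active zone proteins such as Rims, Unc13, bassoon and piccolo hold and prime vesicles at the release site. NSF and its SNAP adaptors then pull spent SNARE complexes apart, and dynamins, amphiphysin and clathrin adaptors retrieve the membrane. The genes are best known from neurons, and several have widely expressed relatives that serve membrane traffic in all cells. Quaking (Qk) encodes an RNA-binding protein that is abundant in glia and acts on splicing, stability and translation of mRNAs.

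RNA was sequenced from corpus callosum, the large tract of myelinated axons that joins the hemispheres, and from cells differentiated toward oligodendrocytes in culture, both of a FvB/C57BL6 hybrid strain. Callosum came from mice injected with tamoxifen at 8 weeks of age and was taken 4 days later. The 4 libraries labelled Qk-KO were Plp-CreERT2;QKLoxP/LoxP and the 4 labelled WT were Plp-CreERT2;QKLoxP/+, so the controls carried the same Cre, 1 floxed Qk allele and the same tamoxifen. This Cre is meant for the oligodendrocyte lineage, whereas tissue RNA comes from every cell of the sample. In culture, neural stem cells of passages 7, 12 and 13 gave 1 library per genotype and passage, in Neurobasal medium with B-27, GlutaMAX-I, IGF-1 at 100 ng/ml and T3 at 50 ng/ml. Every culture labelled Qk-KO (genotype given as Qk-/-) carried 40HT in its description and every culture labelled WT carried EtOH, so agent and genotype cannot be told apart. The sources used here do not say how Qk was removed in culture or whether a callosum library is 1 animal. Whether the passages are independent cell lines was not established here either. The p-values thus measure the spread between these samples, which may be in part technical. The deposited culture fit held no term for passage, so libraries of the same passage were tested unpaired.

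The deposited columns of each library are fitted means. Every library of a genotype gives the same CPM (counts scaled to a common library total) for a gene, so one value stands for all libraries of the genotype, the spread between libraries enters through the deposited standard errors, and no group overlap could be read. Library totals of the fitted counts ran from 15048646 to 27666519 in callosum and from 38325833 to 48912999 in culture. Counts over the whole Qk gene were not lower in the Qk-KO libraries: the log2 change was 0.32 ± 0.12 (SE) in callosum and 0.66 ± 0.14 in culture, and the authors' deposited table gave adjusted p of 0.162 and 4.19e-05. The sources used here do not place the floxed part, so this sum does not check the labels, and every direction below rests on them. All changes are Qk-KO minus WT on the log2 scale, with the standard error after ±, and a gene is called at a DESeq2 adjusted p under 0.05 with no minimum fold. Levels of single genes are ranked only as CPM per kb of exon; sums over a list are in CPM, are not scaled by length, and serve to compare the genotypes within that list.

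The synaptic vesicle genes were mostly higher in cultured cells labelled Qk-KO. Of the 41 genes 28 were higher (68.3%) and 4 were lower (9.76%) by the authors' deposited table, where 13.3% and 15.2% of 17503 tested genes were higher and lower, and 28.6% were called in all. The median change was 1.05 over the 41 genes and 0.01 over all tested genes. The rise was at least 2-fold for 20 of the genes, against 4.41% of tested genes, and at least 4-fold for 10, against 0.806%. Summed over the 41 genes, the fitted level went from 1422 to 2095 CPM. The 4 lower genes were Sv2b, Sypl, Syt11 and Cplx2, and the 9 that did not pass were Vamp1, Napa, Syt2, Syt3, Syt7, Syn3, Sv2c, Rims3 and Amph.

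**Figure D1:**
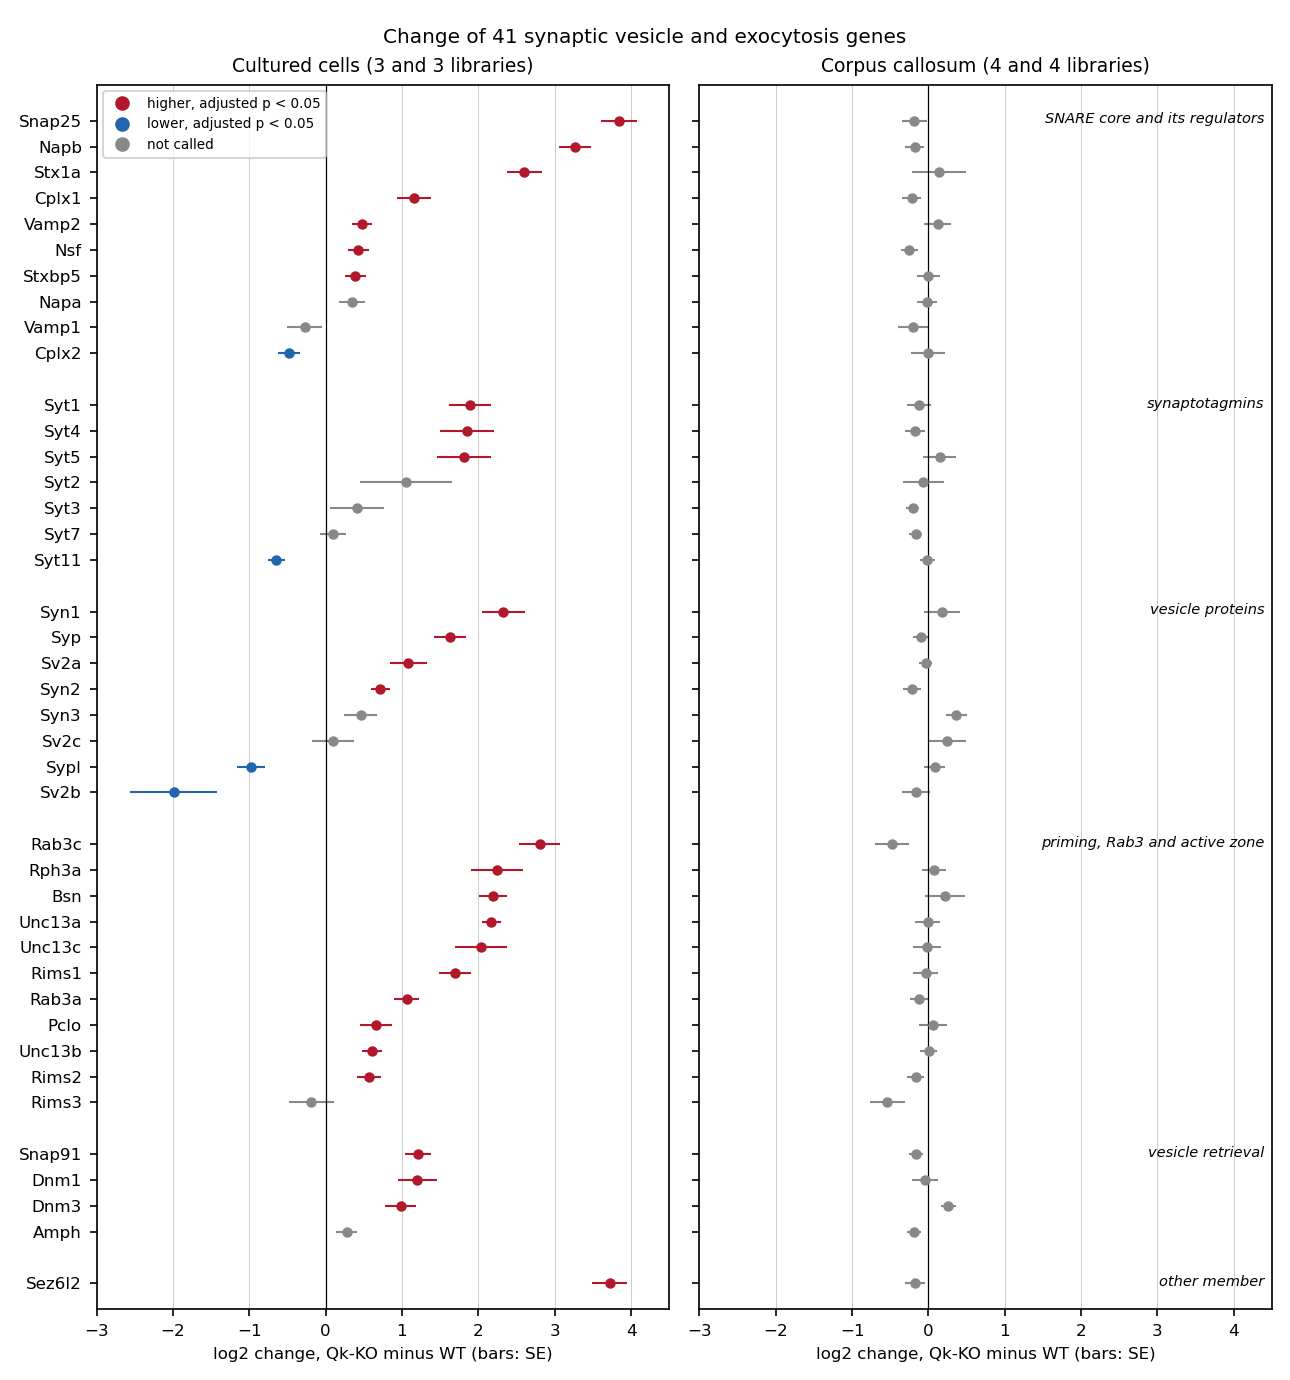
Log2 change of each of the 41 genes, Qk-KO minus WT (points, with bars of 1 SE), in cultured cells (left, 3 and 3 libraries) and corpus callosum (right, 4 and 4 libraries), grouped by role; red is higher, blue lower and grey not called at adjusted p under 0.05. In culture 28 genes were higher and 4 lower, and in callosum 0 of 41 were called.

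Of the 41 genes Snap25 rose most. Snap25 (ENSMUSG00000027273.13, chr2:136713453-136782428, + strand, GRCm38), the plasma membrane SNARE of neurons, had a fitted level of 5.02 CPM in WT culture and 75.9 CPM in Qk-KO culture (3 libraries each). In the authors' deposited table Snap25 rose by 3.84 ± 0.23, a 14.3-fold change (adjusted p = 1.07e-57). Stx1a (chr5:135023482-135051100, + strand), the syntaxin that pairs with Snap25, went from 3.31 to 21.2 CPM, and the change in the authors' deposited table was 2.60 ± 0.23. Napb (chr2:148693985-148732467, − strand), the brain form of the SNAP adaptor that recruits NSF to spent SNARE complexes, went from 7.88 to 80.1 CPM. The change of Napb was 3.27 ± 0.20 (9.64-fold) in the authors' deposited table.

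Other genes of this machinery moved less. Cplx1, a complexin that clamps the assembled SNARE complex, rose by 1.16 ± 0.22 (15.1 to 35.6 CPM) in the authors' deposited table. Its relative Cplx2 fell by 0.48 ± 0.14 (43.4 to 32.8 CPM; authors' deposited table). Vamp2, the main vesicle SNARE of the forebrain, rose by 0.48 ± 0.13, Nsf, the ATPase that takes SNARE complexes apart, by 0.43 ± 0.13, and Stxbp5 (tomosyn, which binds syntaxin in place of a Vamp) by 0.39 ± 0.14 in the authors' deposited table. The widely expressed adaptor Napa changed by 0.35 ± 0.17 (adjusted p = 0.11) and Vamp1 by -0.27 ± 0.23 (adjusted p = 0.413) in the authors' deposited table, and neither passed. Of these 10 genes 7 rose (70%) and 1 fell (10%), with a median of 0.46, against 13.3% higher and 15.2% lower of all tested genes.

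Among the synaptotagmins, 3 of 7 rose (42.9%) and 1 fell (14.3%), with a median of 1.05. The shares of all tested genes were 13.3% higher and 15.2% lower. Syt1, the fast calcium sensor of release, went from 3.75 to 14.7 CPM, and the authors' deposited table gave 1.89 ± 0.28 (adjusted p = 2.71e-10). Syt4, which lacks calcium-dependent membrane binding in its first C2 domain, and Syt5, which binds calcium, showed rises of 1.85 ± 0.35 and 1.81 ± 0.35 (authors' deposited table) from 0.885 and 0.541 CPM. Syt11, a synaptotagmin that does not bind calcium, was the most abundant of the 41 genes per kb of exon in culture and fell by 0.64 ± 0.11, from 587 to 396 CPM, in the authors' deposited table. By the authors' deposited table Syt2 (1.05 ± 0.60), Syt3 (0.41 ± 0.35) and Syt7 (0.10 ± 0.17) did not pass. Syt2, a fast calcium sensor like Syt1, lay at 0.262 and 0.573 CPM and had the widest error of the 41 genes.

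Of the proteins that sit on vesicles, 4 of 8 rose (50%) and 2 fell (25%), against 13.3% and 15.2% of tested genes, with a median of 0.59. Syn1 (chrX:20860511-20921004, − strand), a synapsin that tethers vesicles in the reserve pool, went from 2.18 to 11.5 CPM, a change of 2.33 ± 0.28 in the authors' deposited table. Syn2 rose by 0.72 ± 0.12 (37.0 to 64.2 CPM) and Syn3 changed by 0.46 ± 0.22 without passing (adjusted p = 0.096), both in the authors' deposited table. Syp (synaptophysin), an abundant vesicle membrane protein, rose by 1.63 ± 0.21, from 7.77 to 25.3 CPM, in the authors' deposited table. Sypl, its widely expressed relative, fell by 0.97 ± 0.18, from 16.0 to 8.61 CPM (authors' deposited table).

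The SV2 transporter-like glycoproteins split. Sv2a rose by 1.08 ± 0.24, from 53.4 to 119 CPM, in the authors' deposited table. Sv2b fell by 1.99 ± 0.57, from 1.43 to 0.38 CPM, for an adjusted p = 0.00292 by the authors' deposited table, and Sv2c changed by 0.10 ± 0.28 and did not pass there. In the culture Sv2b was thus the lowest of the 41 genes per kb of exon in the Qk-KO libraries, at 0.0453 CPM per kb.

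Of the priming, Rab3 and active zone genes 10 of 11 rose (90.9%) and 0 fell, with a median of 1.70. Of all tested genes 13.3% rose and 15.2% fell. Rab3c and Rab3a, small GTPases that bring vesicles to the active zone, were higher by 2.80 ± 0.27 (4.77 to 35.1 CPM) and 1.06 ± 0.17 (48.1 to 106 CPM) on that log2 scale (authors' deposited table). Rph3a, the Rab3 effector rabphilin, rose by 2.25 ± 0.34 (3.66 to 18.3 CPM; authors' deposited table). The scaffolds Bsn (bassoon) and Pclo (piccolo) were higher by 2.19 ± 0.18 and 0.66 ± 0.21 (authors' deposited table).

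The Unc13 proteins, which open syntaxin for SNARE assembly, were all higher. Unc13a (chr8:71624417-71671757, − strand) went from 16.7 to 79.2 CPM, and the authors' deposited table gave 2.17 ± 0.12 (adjusted p = 5.07e-65). Unc13c rose by 2.04 ± 0.34 and Unc13b by 0.61 ± 0.13 in the authors' deposited table. Rims1 and Rims2, scaffolds that bind Rab3 and Unc13, rose by 1.70 ± 0.21 and 0.56 ± 0.16 (authors' deposited table). Rims3, a short family member, changed by -0.19 ± 0.30 in the authors' deposited table and did not pass.

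Of the 4 retrieval genes 3 rose (75%), against 13.3% of tested genes, with a median of 1.09. Snap91 (AP180), a clathrin adaptor of neurons, rose by 1.21 ± 0.17, from 49.6 to 121 CPM, in the authors' deposited table. Dnm1, the dynamin of nerve terminals that cuts vesicles from the membrane, rose by 1.20 ± 0.26 from 4.26 to 10.3 CPM, and Dnm3 by 0.98 ± 0.21 from 95.5 to 199 CPM (authors' deposited table). Amph (amphiphysin), which recruits dynamin, changed by 0.28 ± 0.14 (adjusted p = 0.117) in the authors' deposited table. Sez6l2 (chr7:126950563-126970606, + strand), a neuronal membrane protein, was the only one of the 41 outside these roles and went from 1.39 to 19.3 CPM, a change of 3.72 ± 0.23 (13.2-fold) in the authors' deposited table.

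**Figure D2:**
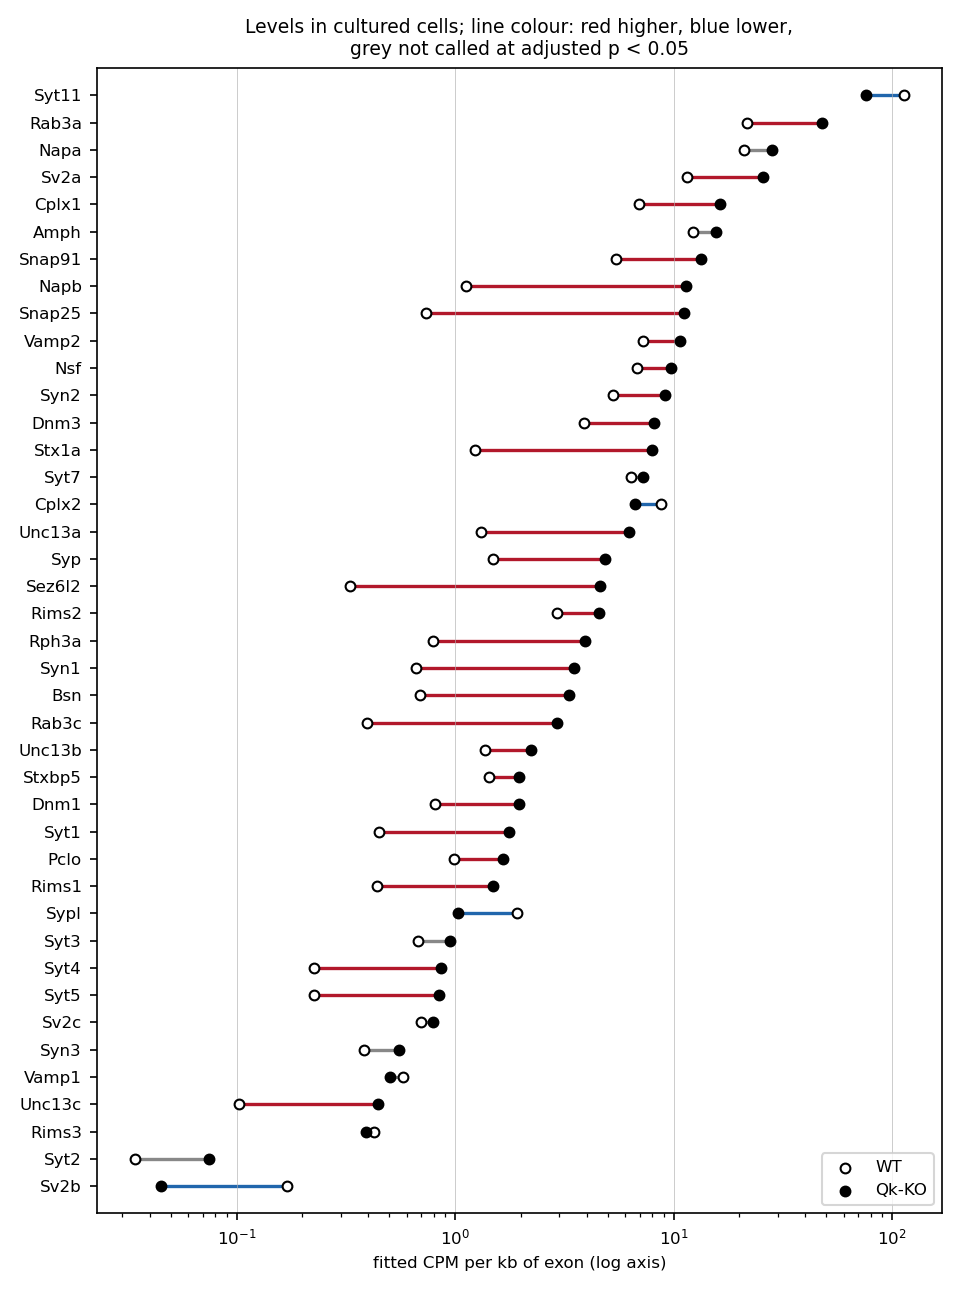
Fitted level of each gene in cultured cells in CPM per kb of exon (log axis), WT as open and Qk-KO as filled circles, sorted by the Qk-KO level; red lines are genes called higher, blue lower and grey not called. Snap25 went from 0.740 to 11.2 and Syt11 from 113 to 76.2 CPM per kb.

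The share of each relative in its family's level was set side by side for 11 families, as CPM per kb of exon and without a test between relatives. These families, and Snap23 and Dnm2 in them, were picked after the changes were seen. Snap25 made up 6.93% of the sum of Snap25 and Snap23 in WT culture and 88.5% in Qk-KO culture. Snap23, the widely expressed relative of Snap25, fell by 2.86 ± 0.19, from 42.6 to 6.21 CPM, in the authors' deposited table. In callosum Snap25 held 98.4% of the sum of Snap25 and Snap23 in WT and 98.2% in Qk-KO. Snap47 and Snap29 of the housekeeping list were left out of this sum. In WT callosum they stood at 102 and 6.56 CPM per kb of exon, and Snap25 at 227, so these are not shares of all such relatives.

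Syp went from 43.7% to 82.5% of the sum of Syp and Sypl in culture, and Napb from 5.06% to 28.7% of the sum of Napa and Napb. Syn1 went from 10.5% to 26.5% of the synapsins, Cplx1 from 44.0% to 70.9% of the complexins and Unc13a from 47.2% to 70.2% of the Unc13 family. In callosum Napb held 64.4% in WT and 61.8% in Qk-KO. In other families the leading relative in culture was the same in both genotypes. Vamp2 held 92.6% and 95.5% of Vamp1 and Vamp2, Sv2a 93.0% and 96.9% of the SV2 family, and Rims2 77.2% and 70.6% of the listed Rims genes in WT and Qk-KO. Dnm2, the widely expressed dynamin, held 87.7% and 67.0% of the dynamins, and Syt11 held 93.4% and 86.7% of the listed synaptotagmins. Syn2 likewise led the synapsins and Napa its pair in both genotypes of the culture.

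**Figure D3:**
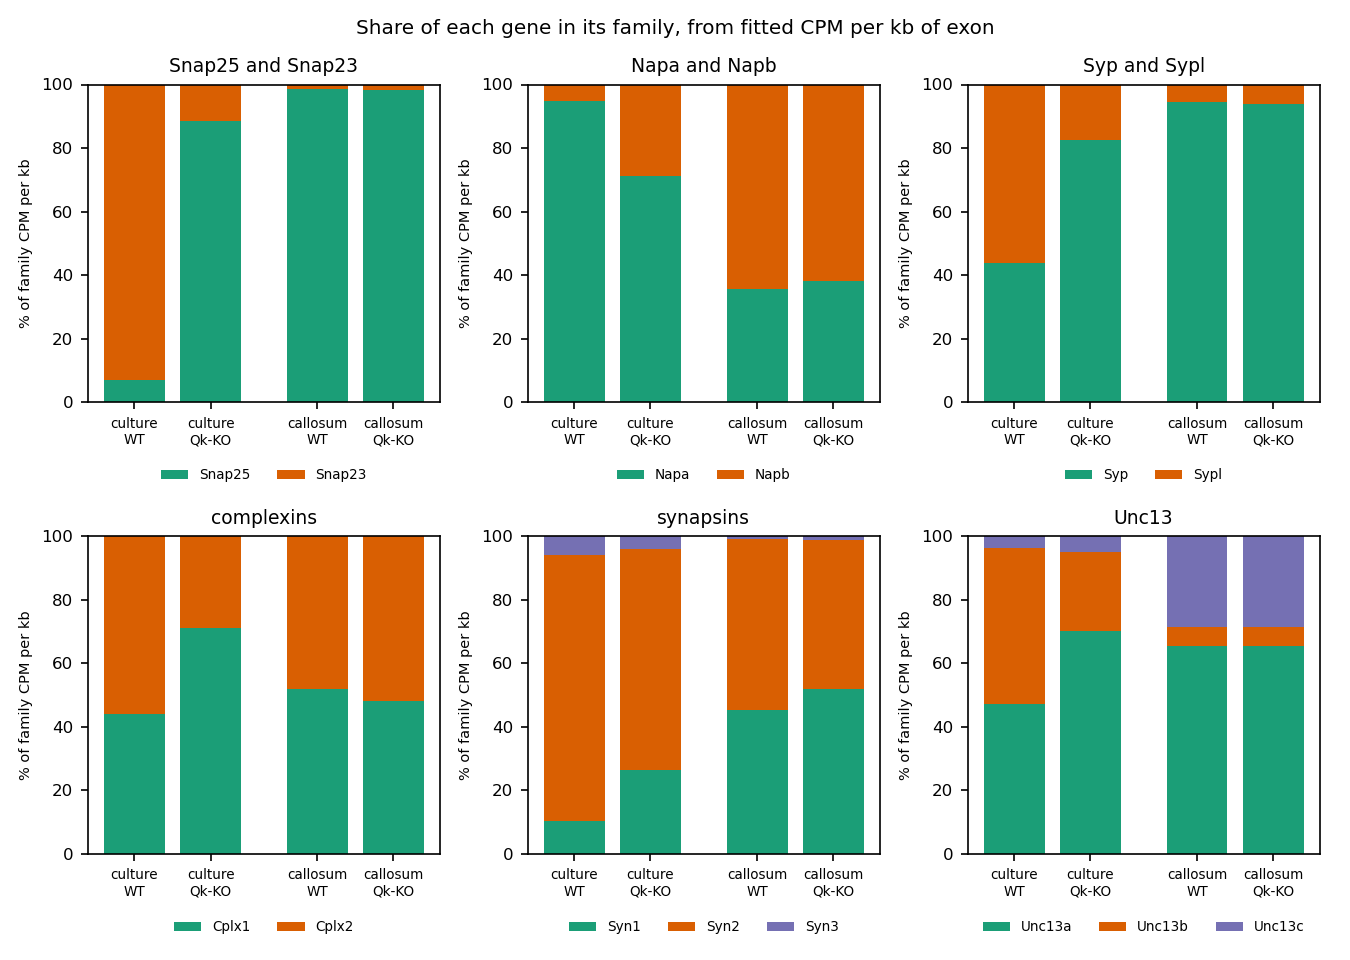
Share of each gene in its family (percent of the summed CPM per kb of exon) in the 4 groups, for 6 families; each bar is the fitted value of 1 genotype. Of the sum of Snap25 and Snap23 alone, Snap25 went from 6.93% to 88.5% in culture and stood at 98.4% and 98.2% in callosum.

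In corpus callosum 0 of the 41 genes were called by DESeq2 in the authors' deposited table, where 2.32% of 19935 tested genes were called (2.09% higher and 0.231% lower). At an unadjusted p under 0.05 there were 8 of 41 genes (19.5%), 2 higher and 6 lower, against 8.08% of tested genes (5.07% higher and 3.01% lower). Of the 8 genes Syn3 (0.37 ± 0.14) and Dnm3 (0.26 ± 0.09) were positive in the authors' deposited table. Negative in the authors' deposited table were Rims3 (-0.54 ± 0.23), Rab3c (-0.48 ± 0.22), Nsf (-0.25 ± 0.11), Syt3 (-0.21 ± 0.09), Amph (-0.18 ± 0.09) and Syt7 (-0.17 ± 0.08). The adjusted p of Dnm3 was 0.166 and that of Rims3 0.357 in the authors' deposited table.

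The median change over the 41 genes in callosum was -0.04, against -0.01 over all tested genes, with 13 values positive and 28 negative. The 95% interval of the change lay inside 2-fold in either direction for all 41 genes, against 83.0% of tested genes, and inside 1.5-fold for 32, against 55.2%. These intervals use the deposited standard errors with a normal reference, around changes that look shrunken toward 0. They describe RNA of the whole tissue and set no bound on a change within the cells the Cre is meant for. Snap25 was the highest of the 41 in WT callosum per kb of exon, at 1540 CPM in WT and 1378 CPM in Qk-KO, with a change of -0.18 ± 0.17 in the authors' deposited table. Syt1, at 1390 and 1296 CPM, changed by -0.12 ± 0.15, and Napb, at 574 and 514 CPM, by -0.18 ± 0.13 in the authors' deposited table. The summed level of the 41 genes was 14390 CPM in WT and 13670 CPM in Qk-KO callosum. In tissue, fewer cells of a type and less RNA per cell cannot be told apart.

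The change in culture differed from the change in callosum for 29 of the 41 genes. A z test, two-sided, compared the 2 log2 changes of the authors' deposited tables, which share no libraries; p was adjusted over 16601 genes, of which 21.5% differed. The culture change lay above the callosum change for 26 genes, against 9.84% of tested genes, and below it for Sypl, Syt11 and Sv2b, against 11.7%. The median difference was 1.12, against 0.02 over all genes tested. The largest differences computed from the authors' deposited tables were those of Snap25 (4.02 ± 0.29), Sez6l2 (3.90 ± 0.27), Napb (3.45 ± 0.24) and Rab3c (3.28 ± 0.35). The 2 changes come from unlike samples. Callosum RNA is of the whole tissue, where Snap25 stood at 1540 CPM in WT, against 5.02 CPM in WT culture. Controls differed too, with a floxed Qk allele and tamoxifen in callosum and EtOH in culture. A difference in log2 change is thus not shown to be a different response of the same cells.

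Across the 41 genes the 2 changes gave a Pearson r of -0.01 and a Spearman rho of 0.01, as a description over genes that share libraries. The 12 genes without a call in the difference include Vamp2, Stxbp5, Cplx2 and Pclo, which were called in culture. Amph was called in the difference (0.46 ± 0.16, adjusted p = 0.0262, from the authors' deposited tables) and in neither system alone.

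Other presynaptic genes form a list by role that holds no member. In culture 13 of 34 tested genes rose (38.2%) and 3 (Syt12, Syt10 and Erc1) fell (8.82%), with a median of 0.35. The shares of all tested genes were 13.3% and 15.2%. Rimbp2, which links Rims to calcium channels, changed by 2.37 ± 0.20, and the liprins Ppfia2 and Ppfia3, active zone organisers, by 1.70 ± 0.33 and 1.37 ± 0.17 in the authors' deposited table. Syt12 fell by 1.62 ± 0.27 (authors' deposited table). Nrxn2 (0.15 ± 0.17), a presynaptic adhesion protein, was not called there (authors' deposited table). In callosum 0 of 37 tested genes of the list were called by DESeq2, against 2.32% of all tested genes. At an unadjusted p under 0.05 there were 2, against 8.08%. There Slc17a7, the vesicular glutamate transporter, changed by -0.001 ± 0.25 (authors' deposited table).

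Housekeeping fusion and trafficking genes, the widely expressed relatives of the members, had 1 of 31 higher (3.23%) and 11 lower (35.5%) in culture, with a median of -0.26. All tested genes had 13.3% higher and 15.2% lower. Besides Snap23, Stxbp3 (a Munc18 protein) fell by 1.29 ± 0.17, Bet1 (a SNARE of the early secretory pathway) by 1.17 ± 0.15 and Rab5a (a GTPase of early endosomes) by 1.17 ± 0.14 in the authors' deposited table. The higher gene was Stxbp2 (0.88 ± 0.25, authors' deposited table). Not called in the authors' deposited table were Gosr2 (0.02 ± 0.12) and Rab11a (0.08 ± 0.16). In callosum 1 of 31 was called (3.23%), against 2.32% of all tested genes. This was Stx2, which rose by 0.71 ± 0.14 in the authors' deposited table, while Snap47 (-0.15 ± 0.11) and Picalm (0.07 ± 0.08) did not pass.

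**Figure D4:**
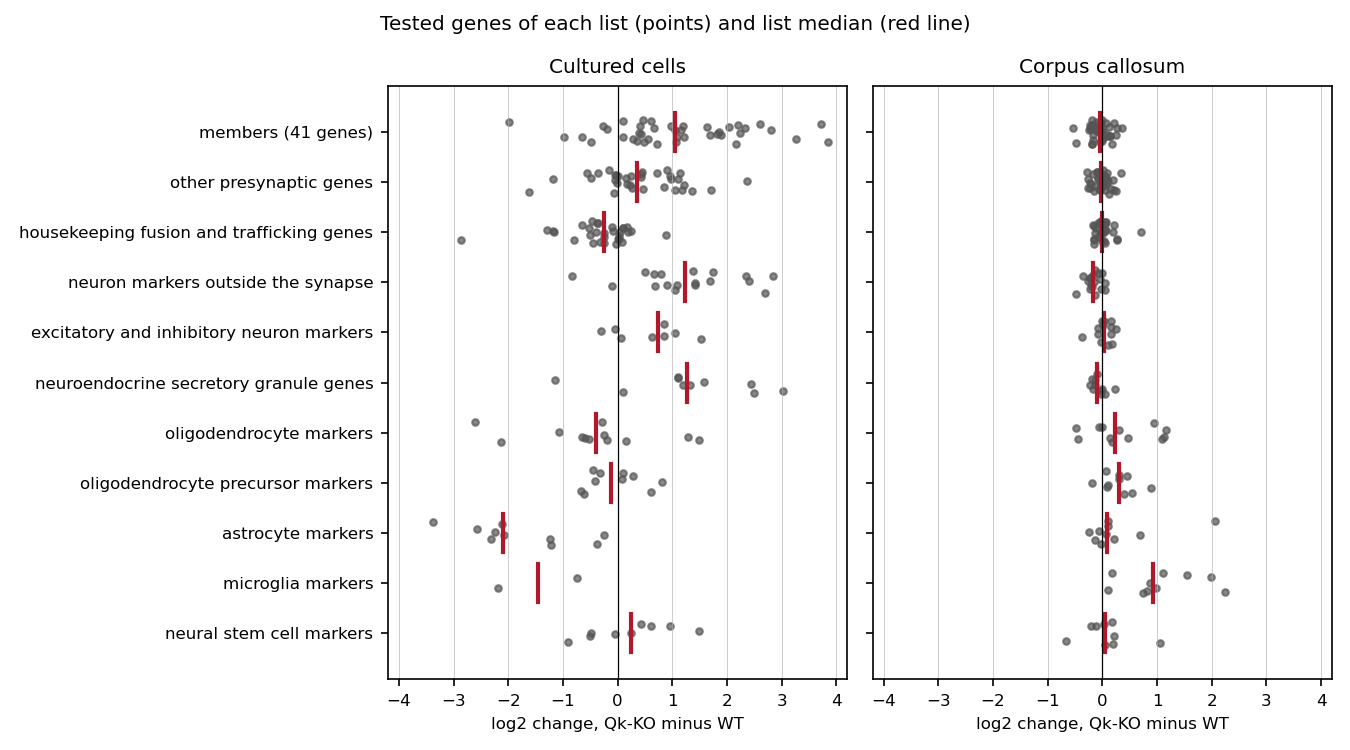
Log2 change of the tested genes of each list (points) and the list median (red line), Qk-KO minus WT, in cultured cells and corpus callosum. In culture the median was 1.05 for the 41 members, 0.35 for other presynaptic genes and -0.26 for housekeeping fusion and trafficking genes.

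Neuron and astrocyte markers moved beside the 41 genes in culture, where 13.3% of all tested genes were higher and 15.2% lower. Of 18 neuron markers outside the synapse 14 rose and 0 fell, with a median of 1.23, and their summed level went from 1091 to 2569 CPM. The authors' deposited table gave 1.04 ± 0.20 for Map2, 0.91 ± 0.23 for Elavl3 and 2.36 ± 0.17 for Stmn3. Genes of excitatory and inhibitory neurons summed to 25.9 CPM in WT and 54.2 CPM in Qk-KO; Slc17a6 was listed at 0, and Slc17a7, Neurod6 and Tbr1 were below the tested level. Of that list Gad1, Dlx1, Dlx2 and Camk2a rose among 8 tested.

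Genes of neuroendocrine secretory granules had 7 of 10 higher and Cpe lower, with a median of 1.26, while the sum of all listed went from 2397 to 1665 CPM, Cpe alone from 2070 to 983 CPM; Chgb, a granin, rose by 2.44 ± 0.25 and Scg3 changed by 0.10 ± 0.14 in the authors' deposited table. Astrocyte markers had 8 of 10 lower and a median of -2.10, their sum going from 14040 to 4052 CPM, with Gfap at -3.37 ± 0.29, Gja1 at -2.23 ± 0.15 and Aqp4 at -1.22 ± 0.22 in the authors' deposited table. Of 12 oligodendrocyte markers 2 rose (Mog and Opalin) and 3 fell, Mal and Aspa among them, with a median of -0.40 and a sum of 3035 and 2380 CPM, and the authors' deposited table did not call Mbp (-0.28 ± 0.63) or Cnp (-0.19 ± 0.28). Among 10 precursor markers Olig1 and Olig2 rose (20%) and Gpr17 and Cspg4 fell (20%), with a median of -0.12. Over all tested genes 13.3% were higher and 15.2% lower, and the precursor and oligodendrocyte shares (16.7% and 25% for the latter) were not far from these. Of 9 neural stem cell markers Fabp7, Nes and Hes5 rose and Pax6 and Msi1 fell, with a median of 0.24 and a sum of 1668 and 1927 CPM. In culture too, a shift in cell makeup and a change of marker RNA per cell cannot be told apart. The part of either in the rise of the 41 genes was not tested.

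Mbp, a myelin protein that marks oligodendrocytes, stood at 2925 CPM in WT callosum and at 525 CPM in WT culture. The lowest single value in CPM among the 12 oligodendrocyte markers was 35.3 in WT callosum and 1.53 in WT culture. Markers of astrocytes and precursors were present in WT culture too. The 2 systems were normalized separately, and their levels were not compared by a test. In callosum neuron markers outside the synapse had 0 of 18 called by DESeq2 (2 at an unadjusted p under 0.05) and a median of -0.17 (5491 to 5057 CPM summed). There 7 of 10 microglia markers were higher with a median of 0.93, against 2.09% of tested genes. Mag, Mog, Myrf and Opalin were higher among 12 oligodendrocyte markers, and Gfap and Aqp4 among 10 astrocyte markers. Bcas1 was higher among 10 precursor markers, and DESeq2 called 0 of 11 granule genes, 0 of 13 excitatory and inhibitory neuron markers and 0 of 9 stem cell markers, with 0, 0 and 2 of them at an unadjusted p under 0.05.

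Promoter words were searched on both strands in RefSeq promoters of GRCm38.p6 (250 bases before to 50 after a start), which held 43 windows of 33 of the 41 genes. The 12 words were tried with the changes known, and those described were chosen after the matches were seen. TTCAGCACC, the first part of the element bound by the neuronal gene repressor REST, stood in the windows of Syn1 and Unc13a, 4.65% of the 43 windows against 0.371% of 32851 promoters. The longer form, in which any pair of bases and then GGACAG follow, stood in 0 of the 43 windows and 0.0122% of all. Only exact words were searched. In Syn1 the match is followed by gc and then ggtcag, where the searched word has GGACAG. The stretches of Syn1 and Unc13a are printed 5′ to 3′ on the gene's strand, with the match in capitals. In Unc13a the match lies on the other strand, 23 bases after the start.
Syn1, chrX:20921049-20921168: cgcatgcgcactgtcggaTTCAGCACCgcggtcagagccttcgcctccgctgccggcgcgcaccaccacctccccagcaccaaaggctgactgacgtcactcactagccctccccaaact
Unc13a, chr8:71671717-71671745: ccgcgcccccGGTGCTGAAgcgacatggc

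The shares of the other words, in the 43 windows and then in all promoters, were 25.6% and 22.2% for GGACAG, 11.6% and 7.14% for CAGCACC (which lies inside TTCAGCACC), and 0% and 0.0365% for CAGCACC followed by any pair of bases and GGACAG. They were 4.65% and 1.79% for TGACGTCA, 0% and 0.490% for TGACGCAA, 9.30% and 7.15% for CACGTG, and 30.2% and 16.3% for CAGCTG. For CAGATG they were 14% and 17.2%, for GGGGCGGGG 30.2% and 11.4%, and for CCGGAAG 2.33% and 8.86%. A match is a description and no site.

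The core words of the quaking binding element, ACTAAC and ACTAAT in DNA letters, were searched on the transcript strand of the 3′ UTRs of the principal GENCODE M21 transcripts. They stood in 13 of 39 members with such a UTR (33.3%), against 32.4% of 13685 tested genes. Per kb of UTR there were 0.228 matches in the members and 0.343 in tested genes. Dnm3 held 5 matches, and Sv2b, which fell in culture, and Snap91, which rose, held matches too; a stretch of each is shown with the word in capitals, in exon 20 of 20 of Dnm3, exon 13 of 13 of Sv2b and exon 26 of 26 of Snap91, all on the − strand.
Dnm3, chr1:161991127-161991156: acagcatgggtaACTAACtccgtttagtta
Sv2b, chr7:75115988-75116017: aatctaaaccaaACTAATgactacattgag
Snap91, chr9:86767290-86767319: gaataggaaaaaACTAACctgagtttggaa

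Exons of some members overlap other genes, and the strand setting of the counting is not given in the sources used here. Syn3 shares 14.1% of its exon length with Timp3 on the other strand, whose mean count in culture was 13640. Unc13a shares 3.92% with Colgalt1 and Rab3a 1.30% with Mpv17l2, both on the other strand, with mean counts of 1990 and 1396 in culture. Smaller shares on the other strand were those of Syn1 with Araf (0.273%, mean 2589) and Syn2 with Timp4 (1.28%, mean 657). Syp shares 16.8% with Gm14703 and Syt4 14.5% with Gm26658, both antisense genes with a mean count of 0.935 and 0 in culture. Sez6l2 shares 9.81% with Gm21984 on the same strand, with a mean of 5.05 there.

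The calls rest on a normal reference for 3 or 4 libraries a group. With a Student reference of 4 residual degrees of freedom, which takes no account of the spread that DESeq2 shares across genes, 0 of 41 members were called in culture and 0 in the difference, as were 0 (0%) of all tested genes. By the authors' DESeq2 values 35 members (85.4%) had an unadjusted p under 0.05 in culture, against 37.4% of tested genes. A test against a 1.5-fold change called 16 members in culture, all higher, against 5.42% of tested genes, and 16 in the difference, against 4.16%. Holm adjustment called 24 members in culture, against 9% of tested genes, and 19 in the difference, against 5.63%. Library-size scaling called 35 in culture, against 30.6%.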

How the data were processed

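RNA-seq of 8 callosum and 6 culture libraries was read from 2 deposited tables, 1 per system. Per the submitters' processing notes, reads were handled with DESeq2, featureCounts, TopHat2 2.0.14 and FastQC, with the mm10 build. Per the file headers, the authors deposited for each gene a mean normalized count over libraries (a signal value), a log2 fold change with its standard error, a score (the Wald statistic), a p-value and an adjusted p-value, and per library a log2 value. Those library values are log2(fitted mean + 1), equal up to 1 factor within a genotype (departure under 1e-09), so no new count model, and no leave-one-out fit, could be run. The deposited WT over Qk-KO direction was turned, and the folds look shrunken toward 0 (at means under 1 the largest absolute log2 change is 1.06 in callosum and 0.96 in culture). Fitted CPM and CPM per kb of merged GENCODE M21 exons (46488 IDs matched) were computed in Python 3.11.15 with pandas 2.3.3 and scipy 1.17.1. CPM ratios include a shift of 0.08 (culture) and 0.02 (callosum) log2 against the fold change. The difference script was tested on simulated data. Alternatives were no filter on the mean, a mean of at least 50, library-size scaling, Holm adjustment, a 1.5-fold test and, chosen after seeing the data, a Student reference. Members, lists and the naming rule were chosen with earlier results of these data known: all 41 members, the 4 called genes with the largest change and the 2 highest-mean genes not called of the other presynaptic and housekeeping lists, and the 3 highest-mean genes of cell type lists; other names were added for counts of 5 or fewer, after their values were seen. Vamp7 of the housekeeping list was not analysed here. Some genes that this rule names are not reported here.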

Additional observations from a re-analysis of the deposited data

Results flagged for a closer look

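The change of 29 of the 41 genes differed between the systems, by a z test on the log2 changes of the authors' deposited tables with Benjamini-Hochberg adjustment. The values are the culture change minus the callosum change, log2. They set cultured cells against whole-tissue RNA with other controls, and do not compare the response of the same cells. Above 2 stood Snap25 (4.02), Sez6l2 (3.90), Napb (3.45), Rab3c (3.28), Stx1a (2.47), Unc13a (2.18), Rph3a (2.17), Syn1 (2.15), Unc13c (2.05), Syt4 (2.03) and Syt1 (2.01). Between 1 and 2 stood Bsn (1.97), Rims1 (1.73), Syp (1.72), Syt5 (1.66), Snap91 (1.38), Cplx1 (1.38), Dnm1 (1.25), Rab3a (1.19) and Sv2a (1.12). Below 1 stood Syn2 (0.93), Rims2 (0.73), Dnm3 (0.72), Nsf (0.68), Unc13b (0.61) and Amph (0.46). The culture change lay below the callosum change for Syt11 (-0.63), Sypl (-1.05) and Sv2b (-1.83).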

How the results depend on the processing

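No paired analysis was possible because the deposited library columns hold fitted means with no spread between libraries; leaving out a library was not run for the same reason. No called value reversed. Of the 41 members in culture, 28 higher and 4 lower by the authors' test, a 1.5-fold test called 16 (16 higher, 0 lower) and Holm adjustment 24 (22 higher, 2 lower); library-size scaling called 35, adding Napa, Syn3 and Amph. Over all tested genes that scaling moved the culture split from 2336 higher and 2667 lower to 3054 higher and 2296 lower. It turned the sign of the callosum change of Cplx2, Napa, Syt11, Unc13a and Unc13c, none of them called there. Of 29 differences between the systems (26 above, 3 below), 16 stood with the 1.5-fold test (16 above, 0 below) and 19 with Holm (1 below). Other presynaptic genes in culture, 16 (13 higher, 3 lower), fell to 8 (7 and 1) with Holm and 4 (3 and 1) with the 1.5-fold test; 1 was lower without the filter and 1 with library-size scaling. Housekeeping genes in culture, 12 (1 higher, 11 lower), fell to 4 (0 and 4) with Holm and with the 1.5-fold test; Stx2 in callosum was lost with the 1.5-fold test (0 of 31). The Student reference, chosen after seeing the data, left 0 calls among the members, the other presynaptic and the housekeeping genes, in both systems, and 0 in the difference; it ignores the spread DESeq2 shares across genes, and the cause of the other losses was not tested. No count of callosum members moved from 0.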
